A study of Mus musculus with 4 samples.

Results

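The ABC transporter family was measured in whole mouse liver with and without a virus that carries Cre, on a background in which every animal was homozygous for a floxed allele of Trib1. The family was taken as all non-control probes whose array gene name begins with Abc, a subfamily letter from a to g and a number. This rule gave 50 genes, with 73 of the 39429 probes and 82 of the 43020 spots of the array. The peptide transporters Tap1 and Tap2 are ABC genes under other names and were not matched by the rule. The mice were female C57B/6 of 8 to 10 weeks, and livers were taken 1 week after injection of AAV_Cre or AAV_Null and after a fast of 4 hours. Animals given AAV_Null stood as wild type, per the series' design. Floxed sequence lies between loxP sites, which Cre recombinase cuts out, and the adeno-associated virus (AAV) delivers Cre to the liver. Each of 4 Agilent arrays held one RNA labelled AAV_Cre and one labelled AAV_Null. Cy5 marked AAV_Cre on arrays 1 and 2, and Cy3 marked it on arrays 3 and 4. The promoter that drives Cre, and whether 1 animal or several gave each RNA, are not given in the sources used here.

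ABC proteins bind and hydrolyse ATP, and most use it to move a substrate across a membrane. In the liver, members at the bile canaliculus export bile salts, phospholipid, sterols and conjugated drugs, members at the sinusoidal membrane return anions to the blood, and others load lipoprotein particles with lipid or serve peroxisomes, mitochondria and lysosomes. Subfamilies E and F have no membrane-spanning part and act on ribosomes and translation. Trib1 encodes a pseudokinase that brings the transcription factor C/EBPα to the COP1 ubiquitin ligase, and the study concerned its loss in the liver.

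Between 51.0% and 58.7% of the spots in a channel were well above background, with no saturation. Over the ABC genes, the log2 ratios of AAV_Cre over AAV_Null had a correlation of 0.77 for the pair of arrays with AAV_Cre in Cy5, 0.64 for the pair with AAV_Cre in Cy3, and 0.42 to 0.47 for pairs of unlike orientation. Over all genes tested the same correlations were 0.67, 0.48 and 0.07 to 0.19 (genes share an array and are not replicates). A single gene, Abca8b, had -1.11 to -0.96 on the 4 arrays and weighs heavily in the ABC correlations, which were not computed without it. Trib1 went against its label: the probe that stood for it, on chromosome 15 from 59487475 to 59487534 (mm9), gave a log2 ratio of 0.94 (adjusted p = 0.0204 in limma). Another Trib1 probe, from 59487662 to 59487721, gave 1.29, and one from 59485136 to 59485195 gave -0.05. The part of Trib1 that is floxed is not stated in the sources used here, and a probe outside it would not report a deletion. Whether the labels were exchanged was not tested, and an exchange would turn every direction given below, so AAV_Cre and AAV_Null name RNA by its label alone. Among the hepatocyte markers (10 of 10 tested), the median log2 ratio was -0.05. By array this median was 0.29, 0.26, -0.29 and -0.83 on arrays 1 to 4, so its sign was split by dye orientation. The log2 of the summed intensity was 20.04 to 20.98 in AAV_Cre against 20.52 to 20.96 in AAV_Null. Of the 10, 1 passed and was lower, against 0.976% of all genes. It was Trf, at -0.51 (adjusted p = 0.0465 in limma), with 0.30 and 0.36 on arrays 1 and 2 and -1.19 and -1.52 on arrays 3 and 4. Over 7 lists of cholangiocyte, macrophage, endothelial, T and NK, B, neutrophil and red cell or platelet markers, 0 of 42 tested genes passed in limma, against 2.80% of all genes. An unadjusted p under 0.05 was reached by 11 of the 42, against 22.6% of all genes, and the list medians ran from -0.32 to 0.15. Endothelial genes made up 7 of these 11, with 1 higher and 6 lower. The neutrophil median was -0.42, -0.82, 0.75 and -0.90 on arrays 1 to 4 and the macrophage median -0.31, -0.23, 0.35 and -0.64, so that array 3 had the opposite sign to the others. The part of these cells in the ABC values was not tested.

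Of the 50 ABC genes, 39 could be tested, which took a probe well above background in 3 or more channels of 1 treatment and measured on 3 or more arrays. Only 2 of these 39 passed an adjusted p of 0.05 in limma, adjusted by Benjamini-Hochberg over 16081 genes. Abcg5, a sterol exporter of bile, rose, and Abca8b, a member of a chromosome 11 gene cluster, fell. Over all genes tested, 2.80% passed, with 1.83% higher and 0.976% lower in AAV_Cre. An unadjusted p under 0.05 was reached by 15 ABC genes (9 higher and 6 lower, 38.5% of those tested), against 22.6% of all genes. The sign was the same on 4 of 4 arrays for 12 ABC genes (8 higher and 4 lower, 30.8%), against 23.2% of all genes. The channel levels of AAV_Cre and AAV_Null did not overlap for 5 ABC genes (Abca7, Abca8a, Abca8b, Abcg5 and Abcg8). The share of all genes without overlap was not computed, so whether 5 of 39 is unusual is not known. The median log2 ratio was 0.02 over the ABC genes and -0.00073 over all genes. Abca8b was the single ABC gene with a log2 ratio beyond 0.5 in either direction (2.56% of those tested, against 2.89% of all genes). In whole liver, fewer cells of a type and less RNA per cell cannot be told apart.

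**Figure D1:**
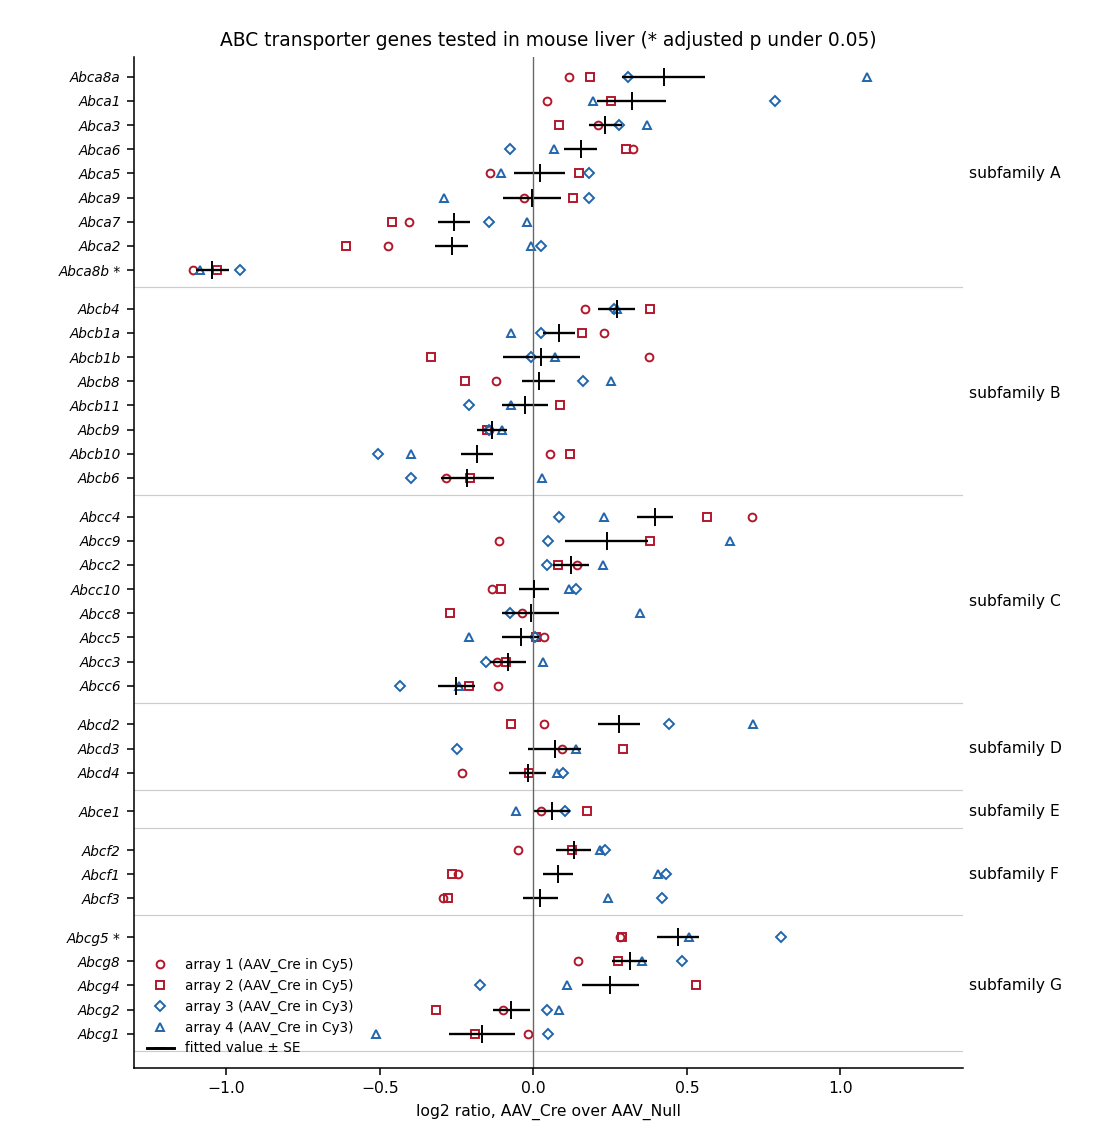
Log2 ratio of AAV_Cre over AAV_Null (x axis) for 37 of the 39 tested ABC genes (rows), grouped by subfamily and sorted within it. Each open symbol is 1 array (red where AAV_Cre was in Cy5, blue where it was in Cy3), and the black cross is the fitted value with its SE. Abca8b stands alone at -1.05, and 8 genes have red and blue symbols on opposite sides of 0.

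The other 11 genes were not tested. Subfamily A had 7 of them (Abca4, Abca12, Abca13, Abca14, Abca15, Abca16 and Abca17), and the rest were Abcb5, Abcc1, Abcc12 and Abcg3. Most of their probes were not well above background in any channel. One probe of Abca17 was well above background in all channels, but its spot was marked as an outlier on 3 of the 4 arrays.

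The promoters of the genes that passed are shown first, because Abcg5 and Abcg8 start back to back on opposite strands, while Abca8b and Abca8a are neighbours with separate starts. The windows run from 250 bases before to 50 bases after the RefSeq start (build GRCm38.p6). Capitals mark matches, on either strand, to AGATAA (a motif of GATA factors), TTGCNNAA (a motif of C/EBP factors) or AGGTCA (a nuclear receptor half-site), and to the repeat of that half-site with a spacer that the sterol receptor LXR uses (DR4). These motifs were chosen with the sequences in view. The windows are Abcg5 at chr17:84682962-84683261 (minus strand), Abcg8 at chr17:84682871-84683170 (plus strand, 1 of its starts in the table), Abca8b at chr11:109995796-109996095 (minus strand) and Abca8a at chr11:110095888-110096187 (minus strand).
Abcg5: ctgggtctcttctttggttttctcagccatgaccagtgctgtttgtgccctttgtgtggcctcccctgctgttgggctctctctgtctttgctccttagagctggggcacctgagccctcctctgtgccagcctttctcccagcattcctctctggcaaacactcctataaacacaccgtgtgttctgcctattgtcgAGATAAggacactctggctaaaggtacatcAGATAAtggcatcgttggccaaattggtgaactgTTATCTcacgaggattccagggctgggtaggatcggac
Abcg8: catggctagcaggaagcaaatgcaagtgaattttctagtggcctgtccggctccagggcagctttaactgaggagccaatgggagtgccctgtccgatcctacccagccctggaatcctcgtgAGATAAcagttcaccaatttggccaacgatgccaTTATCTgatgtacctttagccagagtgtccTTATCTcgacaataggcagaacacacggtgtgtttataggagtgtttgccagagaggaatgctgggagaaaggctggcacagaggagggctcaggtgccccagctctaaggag
Abca8b: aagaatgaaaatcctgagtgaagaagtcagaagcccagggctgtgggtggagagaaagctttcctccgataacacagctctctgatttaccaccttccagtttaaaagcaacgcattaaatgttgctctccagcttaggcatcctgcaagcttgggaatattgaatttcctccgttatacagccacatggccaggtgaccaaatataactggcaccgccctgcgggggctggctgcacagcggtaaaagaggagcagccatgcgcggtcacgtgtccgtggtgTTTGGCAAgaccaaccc
Abca8a: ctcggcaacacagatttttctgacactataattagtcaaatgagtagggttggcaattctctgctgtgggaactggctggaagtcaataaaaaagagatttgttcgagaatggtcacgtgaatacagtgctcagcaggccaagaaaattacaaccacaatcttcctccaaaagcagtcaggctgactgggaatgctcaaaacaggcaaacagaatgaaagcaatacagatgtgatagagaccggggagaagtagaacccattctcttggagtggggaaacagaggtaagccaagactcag

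The Abcg5 and Abcg8 windows overlap by 209 bases, read from opposite strands, and the same 3 AGATAA matches appear in both. At least 1 AGATAA match is held by 11.2% of the 32851 windows of the RefSeq table. Abca8b had 1 match to TTGCNNAA, at bases 284 to 291 of its window, and 10.8% of all windows hold one. The window of Abca8a held no match to any of the motifs. AGGTCA, held by 16.3% of all windows, and DR4, held by 0.0152%, had no match in these 4 windows. No motif overlapped another in them. Among the 45 windows of the 38 ABC genes that the table lists, 6 hold AGATAA, 5 hold TTGCNNAA and 7 hold AGGTCA.

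Abcg5, Abcg8 and Abca1 had positive log2 ratios on every array, and Abcg5 alone of the 3 passed the test. Of the 21 other ways of processing, Abcg5 passed in 9 and Abcg8 in 5. Abcg5 and Abcg8 form a heterodimer that moves cholesterol and plant sterols from the hepatocyte into bile. Abca1 hands cholesterol and phospholipid to apolipoprotein A-I at the cell surface, the first step of high-density lipoprotein formation. The Abcg5 probe lies on chromosome 17, minus strand, from 85057593 to 85057652, and the Abcg8 probe on the plus strand, from 85098745 to 85098804 (mm9). Normalised log2 intensities (loess within arrays, Aquantile between them) of Abcg5 on arrays 1 to 4 were 15.32, 15.30, 15.88 and 15.30 in AAV_Cre, against 15.04, 15.01, 15.07 and 14.79 in AAV_Null. Every AAV_Cre value lay above every AAV_Null value, with array 3 highest in AAV_Cre and array 4 lowest in AAV_Null. The log2 ratio was 0.47 ± 0.07 (SE, n = 4 arrays), or 1.39-fold, with an adjusted p of 0.0494 in limma, close to the threshold, and the arrays gave 0.28, 0.29, 0.81 and 0.51. With any 1 array left out, Abcg5 no longer passed (adjusted p 0.0768 to 0.264), and without a dye effect in the fit its adjusted p was 0.114.

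Abcg8 had 9.83, 9.93, 10.11 and 9.86 in AAV_Cre, against 9.68, 9.65, 9.63 and 9.51 in AAV_Null on arrays 1 to 4. The groups did not overlap for Abcg8 either. Its log2 ratio was 0.31 ± 0.06 (SE, n = 4 arrays) with an adjusted p of 0.0700 in limma, and the arrays gave 0.14, 0.27, 0.48 and 0.36. In both genes array 3 gave the highest log2 ratio, followed by array 4.

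Abca1 had 12.14, 12.39, 12.91 and 12.87 in AAV_Cre, against 12.09, 12.14, 12.13 and 12.67 in AAV_Null. The groups overlapped: array 4 was high in both, and the AAV_Cre value of array 1 lay below the AAV_Null value of array 2. The log2 ratio of Abca1 was 0.32 ± 0.11 (SE, n = 4 arrays, adjusted p = 0.201 in limma), and array 3 gave 0.79 while the other arrays gave 0.05 to 0.25. With array 3 left out its log2 ratio was 0.17, and with array 4 left out 0.47. Abcg1, which moves cholesterol to high-density lipoprotein, had -0.17, and Abcg4, known for sterol export in brain, had 0.25 (n = 3 arrays, adjusted p = 0.240 in limma), with the spot of array 1 left out as an outlier. Without a dye effect in the fit its log2 ratio was 0.16, and its other 2 probes were not well above background in any channel. The tested Abcg4 probe shares a run of 21 bases with a probe of Lemd1.

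No partner of sterol efflux passed the test. Of 16 listed genes, 15 were tested and 0 passed in limma, with a median log2 ratio of -0.03. An unadjusted p under 0.05 was reached by 1 higher and 4 lower of the 15, against 22.6% of all genes. The smallest p belonged to Npc1, which releases cholesterol from lysosomes, at 0.26 (adjusted p = 0.0785 in limma). Nr1h3, which encodes the sterol receptor LXRα, had 0.10, and Scarb1, the hepatic receptor for high-density lipoprotein, had -0.26 (adjusted p = 0.118 in limma).

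Bile exporters did not pass the test. Abcb11 is the bile salt export pump, and Abcb4 moves phosphatidylcholine into the canalicular membrane. Abcc2 exports bilirubin glucuronide and other conjugates into bile, whereas Abcc3 exports conjugates to the blood. Abcb4 had 15.23, 15.53, 15.41 and 14.92 in AAV_Cre, against 15.06, 15.15, 15.14 and 14.65 in AAV_Null. AAV_Cre was the higher channel on each array, but the groups overlapped because both channels of array 4 were low. The fitted value for Abcb4 was 0.27 ± 0.06 on the log2 scale (SE, n = 4 arrays, adjusted p = 0.0953 in limma). A second Abcb4 probe, designed to the clone transcript AK165484, gave 0.59, 0.62, 0.20 and 0.46 on the arrays, with a fitted log2 ratio of 0.47 and an adjusted p over all probes tested of 0.0489 in limma.

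Abcb11 had 15.59, 15.34 and 15.49 in AAV_Cre on arrays 2 to 4, against 15.50, 15.54 and 15.56 in AAV_Null, and its spot on array 1 was left out as an outlier. AAV_Cre was the higher channel on array 2 only. Its log2 ratio was -0.03 with a 95% interval of -0.24 to 0.18 (n = 3 arrays, adjusted p = 0.859 in limma), and 0.010 with median centring in place of loess.
Abcc2 had 12.53, 12.81, 12.66 and 12.90 in AAV_Cre, against 12.38, 12.73, 12.62 and 12.67 in AAV_Null. AAV_Cre was higher on each array, by 0.04 to 0.23, and the groups overlapped. For Abcc2 this gave a log2 ratio of 0.12, with a 95% interval of -0.03 to 0.27 (n = 4 arrays, adjusted p = 0.296 in limma).
Abcc3 had 14.44, 14.68, 14.51 and 14.42 in AAV_Cre, against 14.56, 14.77, 14.66 and 14.38 in AAV_Null. AAV_Cre was lower on arrays 1 to 3 and higher on array 4. For Abcc3 the fit gave -0.08 on the log2 scale, with a 95% interval of -0.23 to 0.07 (n = 4 arrays, adjusted p = 0.451 in limma), and 0.0063 with median centring. These intervals are not adjusted for the number of genes.

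**Figure D2:**
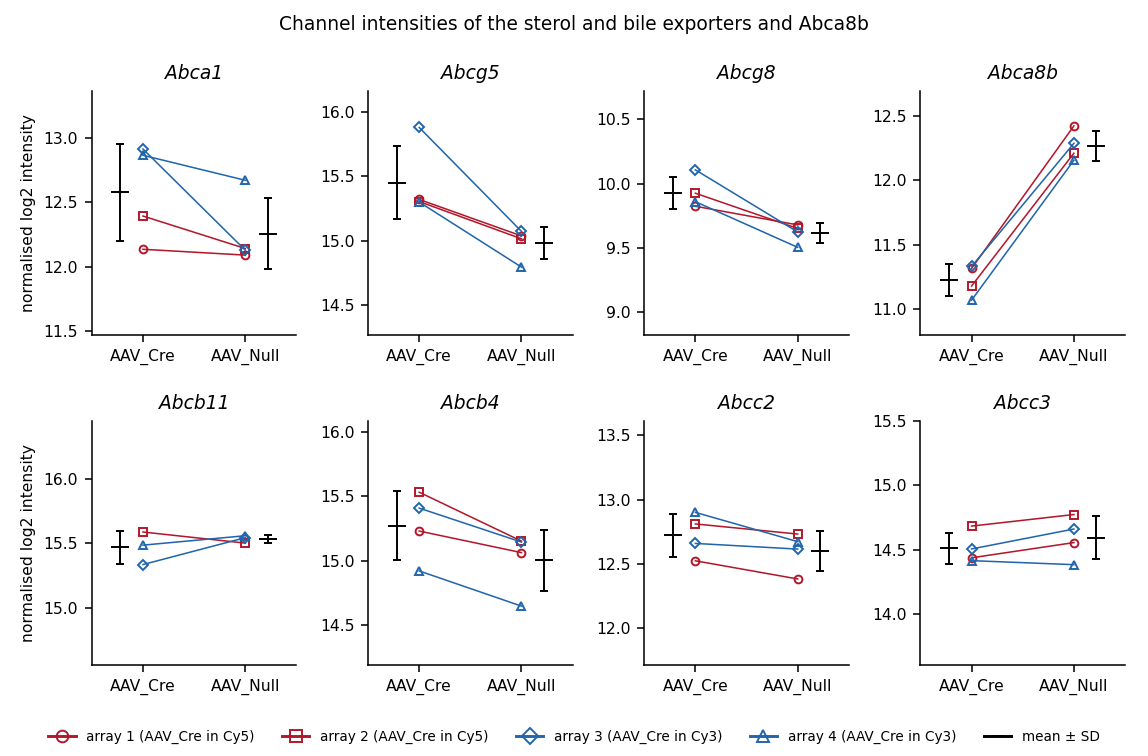
Normalised log2 intensity (loess within arrays, Aquantile between them, y axis with the same span in every panel) of the 3 sterol exporters, Abca8b and the 4 bile exporters in AAV_Cre (left) and AAV_Null (right). Lines join the channels of 1 array, and black bars are the mean ± SD over arrays (n = 4, or 3 for Abcb11). Abcg5, Abcg8 and Abca8b separate fully between the groups, and the other genes drawn overlap. The share of all genes that separate was not computed.

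No partner of the bile exporters passed the test either. Of 16 listed genes of bile export and uptake, 15 were tested and 0 passed in limma, with a median log2 ratio of 0.04. An unadjusted p under 0.05 was reached by 3 higher and 3 lower of the 15, against 22.6% of all genes. Nr1h4, which encodes the bile acid receptor FXR, had 0.41 (adjusted p = 0.0506 in limma), with 0.16, 0.18, 0.76 and 0.53 on the arrays. Slco1a1, an organic anion uptake carrier of the sinusoidal membrane, had -0.73 (adjusted p = 0.0509 in limma) and was lower on each array, by 0.17 to 1.21. Slco1b2, of the same list, went the other way, at 0.35 (adjusted p = 0.0878 in limma), and was higher on each array, by 0.11 to 0.48.

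Subfamily A held the one ABC gene that fell. Abca8b belongs to a run of 5 ABC genes on chromosome 11 that RefSeq lists side by side (Abca8b, Abca8a, Abca9, Abca6 and Abca5). Its human relative ABCA8 has been linked to cholesterol efflux and high-density lipoprotein. The Abca8b probe lies on the minus strand from 109795589 to 109795648, and the Abca8a probe on the same strand from 109945491 to 109945550 (mm9). Abca8b had 11.32, 11.18, 11.33 and 11.07 in AAV_Cre, against 12.42, 12.21, 12.29 and 12.16 in AAV_Null. The highest AAV_Cre value lay below the lowest AAV_Null value, and the ratio was alike in both dye orientations, at -1.11, -1.03, -0.96 and -1.09. The fitted log2 ratio was -1.05 ± 0.05 (SE, n = 4 arrays), a level 2.06-fold lower in AAV_Cre, with an adjusted p of 0.0106 in limma. With array 1, 2 or 4 left out its adjusted p was 0.0912, 0.112 and 0.0593, at log2 ratios of -1.03, -1.06 and -1.01, while it still passed without array 3 (0.0424).

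None of the 4 neighbours of Abca8b passed the test. Abca8a had 8.95, 9.02, 9.21 and 9.16 in AAV_Cre, against 8.83, 8.83, 8.90 and 8.08 in AAV_Null. The groups did not overlap, and the low AAV_Null value of array 4 set it apart. Its log2 ratio was 0.42 ± 0.14 (SE, n = 4 arrays, adjusted p = 0.172 in limma), with 0.11, 0.18, 0.31 and 1.09 on the arrays, and 0.23 with array 4 left out. Abca9 had 0.00, Abca6 0.15 and Abca5 0.02 on the log2 scale, and none of these passed (adjusted p 0.987, 0.196 and 0.907 in limma). The probes of these 5 genes shared runs of at most 8 bases with each other. The difference between Abca8b and its neighbours was not tested. Of the stellate cell markers (8 of 10 tested, Des and Reln not well above background), 1 passed and was higher, against 1.83% of all genes tested. It was Col3a1, at 0.47 (adjusted p = 0.0434 in limma). These stellate markers had a median log2 ratio of 0.28. The log2 of their summed intensity was 15.58 to 16.00 in AAV_Cre, against 15.04 to 15.83 in AAV_Null, and the part of this in the values of Abca8a, Abca9, Abca6 and Abcc9 was not tested.

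**Figure D3:**
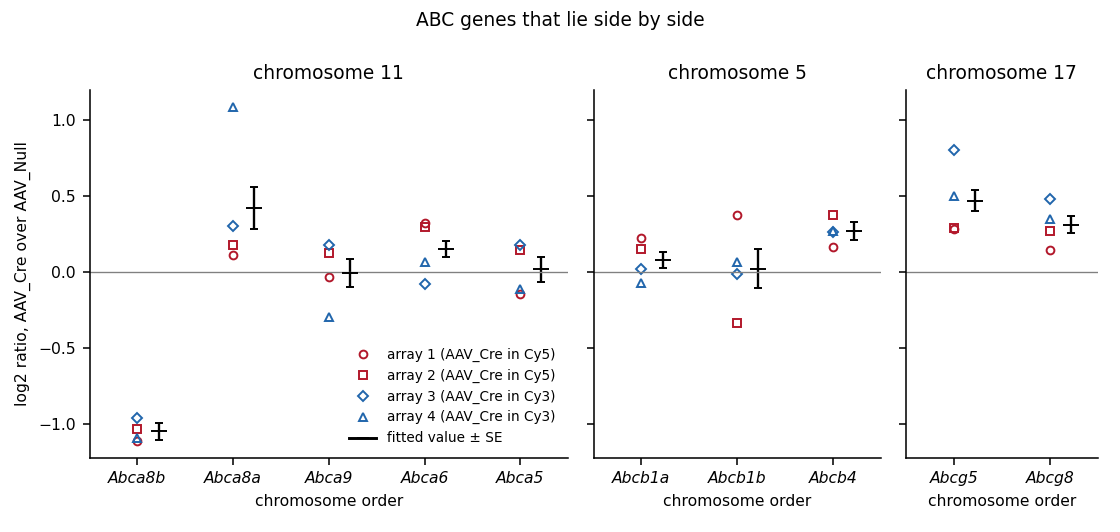
Log2 ratio of AAV_Cre over AAV_Null (y axis) of ABC genes that are next to each other on chromosomes 11, 5 and 17, in the order RefSeq lists them. Open symbols are arrays, coloured by the dye of AAV_Cre, and black bars are the fitted value ± SE. Abca8b at -1.05 lies beside Abca8a at 0.42, whereas Abcg5 at 0.47 and Abcg8 at 0.31 lie on the same side of 0.

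Of the 9 tested genes of subfamily A, 7 had an unadjusted p under 0.05 in limma (4 higher and 3 lower, 77.8%), against 22.6% of all genes, a difference not tested. Beside Abca1, Abca8a, Abca8b and Abca6, these were Abca2 and Abca7 with negative ratios and Abca3 with a positive one. Abca7, a phospholipid exporter with a part in phagocytosis, had -0.41, -0.46, -0.14 and -0.02 on the arrays and a fitted log2 ratio of -0.26 (adjusted p = 0.0870 in limma). Abca2, a lipid transporter of endolysosomes best known in brain, had -0.27 (adjusted p = 0.0828 in limma) on its brighter probe and -0.02 on its second. Abca3, which loads phospholipid into the lamellar bodies of the lung, had 0.23 and was positive on each array (adjusted p = 0.105 in limma).

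In subfamily B, 9 of 10 genes were tested and 0 passed in limma. An unadjusted p under 0.05 was reached by 1 higher and 2 lower (33.3% of those tested), against 22.6% of all genes. Abcb4 lies in a row with Abcb1a and Abcb1b on chromosome 5, which encode the P-glycoproteins that expel drugs, and these had 0.08 and 0.03 on the log2 scale. With the authors' deposited values Abcb1a had 0.25 (adjusted p = 0.0399 in limma) and Abcb1b 0.22 (adjusted p = 0.0766 in limma). Abcb1a thus passed there, and it also passed without background subtraction. Abcb10, which supports heme synthesis in the inner mitochondrial membrane, had 0.05 and 0.12 on arrays 1 and 2 but -0.50 and -0.40 on arrays 3 and 4, with a fitted log2 ratio of -0.18 (adjusted p = 0.143 in limma). Abcb6, a porphyrin transporter, had -0.22 (adjusted p = 0.235 in limma). Of the 11 mitochondrial iron-sulphur and heme genes, 0 passed in limma. An unadjusted p under 0.05 was reached by 3 higher and 1 lower of the 11, against 22.6% of all genes. The smallest p was that of the iron importer Slc25a37, at 0.32 (adjusted p = 0.0805 in limma).

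In subfamily C, 8 of 10 genes were tested and 0 passed in limma. An unadjusted p under 0.05 was reached by 1 higher and 1 lower (25% of those tested), against 22.6% of all genes. Abcc4, which exports bile acids and cyclic nucleotides at the sinusoidal membrane, came closest. It had 8.22, 8.44, 8.46 and 8.47 in AAV_Cre, against 7.51, 7.87, 8.38 and 8.24 in AAV_Null. AAV_Cre was higher on each array, by 0.71 and 0.57 on arrays 1 and 2 and by 0.08 and 0.23 on arrays 3 and 4, and the groups overlapped through the AAV_Null values of arrays 3 and 4. The fitted log2 ratio was 0.40 ± 0.06 (SE, n = 4 arrays, adjusted p = 0.0502 in limma), and Abcc4 passed under 8 of the 21 other ways of processing.

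Abcc6, a hepatocyte transporter needed for the release of ATP that restrains calcification, had 13.63, 13.67, 13.49 and 13.39 in AAV_Cre, against 13.75, 13.88, 13.92 and 13.63 in AAV_Null. AAV_Cre was lower on each array. The log2 ratio of Abcc6 was -0.25 ± 0.06 (SE, n = 4 arrays, adjusted p = 0.108 in limma), and its second probe gave -0.22. Abcc9, a sulphonylurea receptor subunit of potassium channels, had 0.24 ± 0.14 (SE, n = 4 arrays, adjusted p = 0.365 in limma), with a range of -0.11 to 0.64 over arrays. The 3 tested probes of Abcc5, a nucleotide exporter, gave -0.04, -0.13 and 0.26, the widest spread between probes of a gene in the family.

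Regulators of drug and anion export included 2 genes that rose, of 10 tested, against 1.83% of all genes, and neither passed with any 1 array left out. This list of regulators was chosen with earlier results of these data known, so the 2 shares set side by side are no test of it. Among these xenobiotic sensors and regulators, Nfe2l2 (the oxidative stress factor NRF2) rose by 0.71 (adjusted p = 0.0419 in limma), with array values of 0.49 to 0.97 (4 of 4 positive). Nr1i2 (the pregnane X receptor) rose by 0.50 (adjusted p = 0.0493 in limma), with array values of 0.33 to 0.66 (4 of 4 positive). The list's median log2 ratio was 0.06, and Nqo1, an NRF2 target, had 0.12 (adjusted p = 0.547 in limma).

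In subfamily D, all 4 genes were tested and 0 passed in limma, with 1 at an unadjusted p under 0.05 (25%, against 22.6% of all genes). Abcd2 and Abcd3 import fatty acyl-CoA into peroxisomes, and Abcd4 acts in lysosomal cobalamin transport. Abcd2 had 7.13, 7.27, 7.60 and 7.40 in AAV_Cre, against 7.10, 7.34, 7.16 and 6.69 in AAV_Null. The channels were close on arrays 1 and 2 and apart on arrays 3 and 4, and the groups overlapped. Abcd2 had a fitted log2 ratio of 0.28 ± 0.07 (SE, n = 4 arrays, adjusted p = 0.112 in limma). Its probe was dim, with a mean log2 intensity of 7.21. Over the other ways of processing its log2 ratio ran from 0.21 to 0.46, the highest with the scanner's processed signals. Abcd3 had 0.07 ± 0.09 (SE, n = 4 arrays), and Abcd4 had -0.02. Of 18 peroxisome genes, 1 passed and was higher, against 1.83% of all genes tested. A count of 1 says little of the list as a whole. The gene was Pex16, a factor of peroxisome membrane assembly, at 0.34 (adjusted p = 0.0491 in limma). Pex16 had -0.11 and -0.06 on arrays 1 and 2 and 0.75 and 0.77 on arrays 3 and 4. With any 1 array left out Pex16 did not pass.

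Subfamilies E and F, which act on ribosomes, had 4 of 4 genes tested, and 0 passed in limma. None had an unadjusted p under 0.05, against 22.6% of all genes. Abce1, which splits ribosomes after termination, had 0.06 ± 0.06 (SE, n = 4 arrays, adjusted p = 0.596 in limma). Abcf2 had 0.13 ± 0.06 (SE, n = 4 arrays, adjusted p = 0.264 in limma). Abcf1, which takes part in translation initiation, had -0.25 and -0.27 on arrays 1 and 2 but 0.43 and 0.40 on arrays 3 and 4, so that its fitted value was 0.08. Abcf3 had -0.29 and -0.28 on arrays 1 and 2 and 0.42 and 0.24 on arrays 3 and 4, with a fitted value of 0.02. Among 10 genes of ribosome recycling and translation control, 0 passed in limma. An unadjusted p under 0.05 was reached by 3 of the 10, all higher, against 22.6% of all genes. Etf1, a translation termination factor, had the smallest p at 0.26 (adjusted p = 0.0915 in limma).

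A sign that differed between the dye orientations was not more frequent in the family than over all genes. For 8 of the 39 genes (20.5%, against 26.0% of all genes) every measured array with AAV_Cre in Cy5 had the opposite sign to both arrays with AAV_Cre in Cy3. These were Abcb8, Abcb10, Abcb11, Abcc10, Abcd4, Abcf1, Abcf3 and Abcg2, of which Abcg2 exports drugs and urate. Abcb11 was measured on array 2 alone of arrays 1 and 2. In the share of all genes, a gene missing on any array was not counted as split, so the 2 shares follow unlike rules. A dye effect with an unadjusted p under 0.05 was fitted for 11 of the 39 (28.2%), against 25.5% of all genes, and Abcg5 and Abcc4 were among them. A dye effect and a difference between the RNA pairs of the 2 orientations cannot be told apart, since the labels state that no RNA was hybridised a further time with its dye changed.

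**Figure D4:**
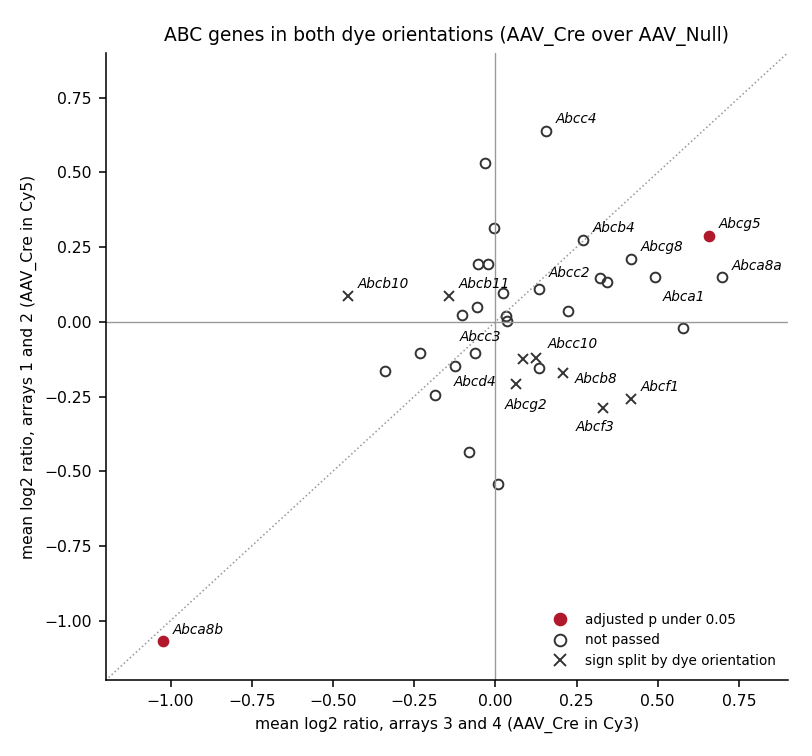
Mean log2 ratio of AAV_Cre over AAV_Null on arrays 1 and 2 (y axis, AAV_Cre in Cy5) against arrays 3 and 4 (x axis, AAV_Cre in Cy3), 1 point for each of 37 of the 39 tested ABC genes, with the dotted line at equality. Abca8b and Abcb4 lie close to the line, Abcg5 lies to its right, Abcc4 lies above it, and crosses mark the 8 genes whose sign is split by orientation.

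**Figure D5:**
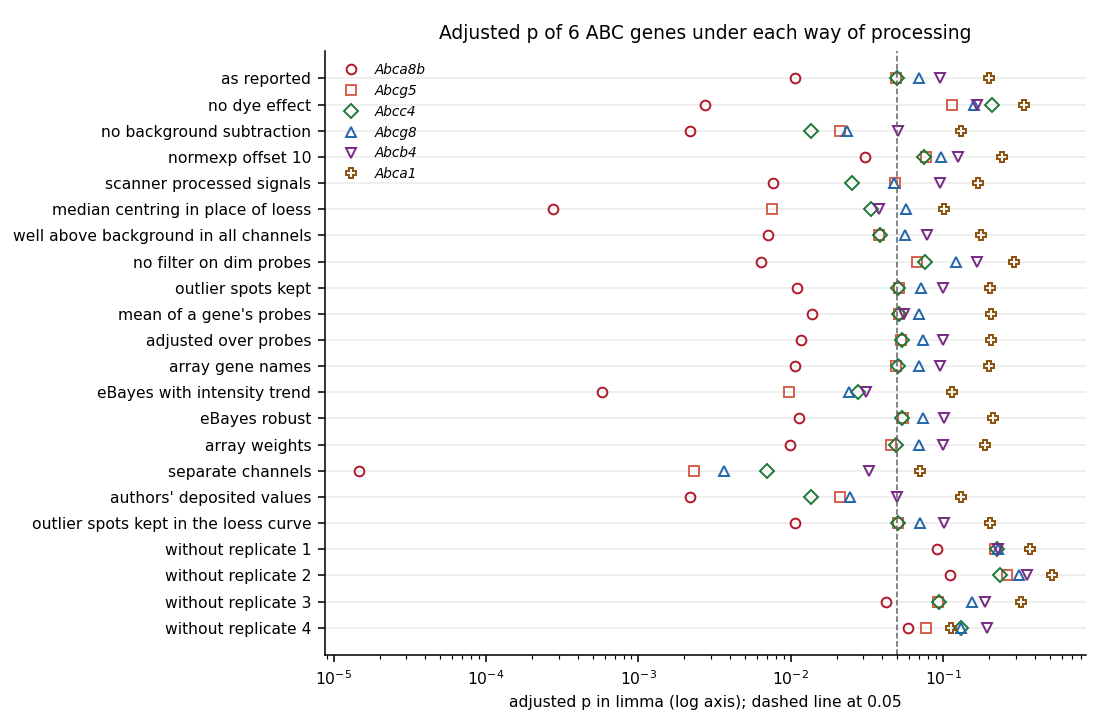
Adjusted p in limma (x axis, log scale) of 6 ABC genes under the reported processing (top row) and 21 alternatives (other rows), with the dashed line at 0.05. Abca8b stays left of the line in 18 of the 21 alternatives, and Abcg5 and Abcc4 have points on both sides of it.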

How the data were processed

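Per the file headers, Agilent Feature Extraction 11.5.1.1 gave each spot's intensity and local background in Cy5 and Cy3, a processed intensity, and a log10 ratio of Cy5 over Cy3. The deposited table of log2 values, for which the submitters' processing notes name limma without its steps, was AAV_Cre over AAV_Null on each array when set against that log10 ratio. Its centring and normalisation steps are unknown, and its column medians were -0.02, -0.04, 0.04 and 0.04.

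Mean spot intensity was background-corrected with normexp (offset 50) and loess-normalised within arrays in limma 3.58.1 under R 4.3.3, with control spots and outlier-marked spots at weight 0. Outlier spots were then left out unless a probe lost all of its spots, and spots of 1 probe were averaged. For the channel levels, the mean log2 intensities of the spots (over both channels) were further quantile-normalised to a common distribution across arrays (Aquantile). This step leaves the log2 ratios as they were. The log2 ratio was fitted with a treatment and a dye effect by lmFit and eBayes. A gene was represented by its brightest probe that passed the filter on dim probes, with Benjamini-Hochberg adjustment over all genes tested. The fit had up to 2 residual degrees of freedom beside 2.67 prior ones. The 4 arrays limit the precision. A p-value reflects how far arrays of like orientation differ, which may be technical, together with a prior variance estimated over all probes tested.

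The labels' protocols give 2 labelling procedures, and which was used is not settled here. All arrays were on 1 slide. Symbols were updated through RefSeq tables (GRCm38.p6), and probe coordinates are those of the array files (mm9). Whether a probe lies in coding sequence was not analysed here. The fit was also run on simulated data drawn from its own variance model, with the same change on every array. Such data cannot test whether that model suits these arrays. Figures were drawn with matplotlib 3.10.9.

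The members and gene lists were chosen with earlier results of these data known. The rule for named genes took the 7 exporters, every ABC gene past the threshold, the 3 largest log2 ratios of each subfamily, genes with probes that differ by more than 0.5 (none), and from each partner list the genes that passed or else the one of smallest p. Other genes given with values (among them Abca2, Abca3, Abca5, Abca6, Abca7, Abca9, Abcb1a, Abcb1b, Abcc5, Abcd4, Abcg1, Nr1h3, Scarb1, Slco1a1, Slco1b2 and Nqo1) were chosen after their values were seen. Of the tested members, 2 enter the counts but are not reported here by themselves.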

Additional observations from a re-analysis of the deposited data

Results flagged for a closer look

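Dixon's test for a single outlying array was run on 46 sets of 4 log2 ratios (37 ABC genes measured on every array, and medians of subfamilies and exporters). It marked 1, where chance would mark about 2.3. The log2 ratio of Abcc5 was -0.211 on array 4, while the other arrays gave 0.04, 0.01 and 0.00. The gap to the nearest array was 0.876 of the whole range. The fitted log2 ratio of Abcc5 was -0.04 and did not pass the test (adjusted p = 0.726 in limma).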

How the results depend on the processing

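The number of ABC genes that passed, 2 as reported with 1 of the exporters among them, depended on the processing. It was 1 gene and 0 exporters without a dye effect, with a normexp offset of 10, with no filter on dim probes, with outlier spots kept, with the mean of a gene's probes, with adjustment over probes (counting each gene's brightest probe; the second Abcb4 probe passed there, at 0.0489), with robust eBayes, and with outlier spots kept in the loess curve alone (an alternative chosen after seeing the data). It was 4 genes and 2 exporters with the scanner's processed signals or with median centring, 6 and 2 without background subtraction, 6 and 3 with the authors' deposited values, 9 and 3 with an intensity trend, and 12 and 3 with separate channels. It was 7 and 3 at a threshold of 0.10 and 0 and 0 at 0.01. The share of all genes that passed moved as well, from 2.80% as reported. It was 0.961% to 2.77% under the alternatives that gave 1 ABC gene with all arrays kept. Processed signals gave 4.55%, median centring 4.76%, no background subtraction 8.77% and the authors' deposited values 8.66%. An intensity trend gave 8.16%, separate channels 15.9%, the threshold of 0.10 8.13% and that of 0.01 0.0746%. Leaving out 1 array gave 0 to 1 genes and 0 exporters, with fewer residual degrees of freedom, and 0 to 38 of all genes passed. None of Nfe2l2, Nr1i2, Pex16, Trf and Col3a1 passed with any 1 array left out. The median log2 ratio of the family was 0.01 to 0.04 throughout. Of 267 values of named ABC genes under the 13 alternatives that move a log2 ratio, 4 changed sign, all of genes that did not pass. Median centring gave Abcb11 0.010 and Abcc3 0.0063. With each array left out in turn, Abcd3 ran from -0.027 to 0.17 and Abcf3 from -0.022 to 0.067, where the negative values came without array 4 (Abcd3) and array 3 (Abcf3). The causes were not tested. Abca8b was -1.09 to -1.01 in every alternative, and Abcg5 was 0.40 to 0.56. Each log2 ratio sets the channels of 1 array against each other, so the fit as reported is paired by array, and no replicate number is shared between the dye orientations. The 4 arrays limit what could pass: the median SE of an ABC gene was 0.06.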
